A study of Homo sapiens with 6 samples.

Results

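The proteasome is the large protease of the cytosol and nucleus that breaks down proteins tagged with ubiquitin. Its 20S core is a barrel of alpha rings, which form the gate, and beta rings, which hold the cutting sites. The 19S regulatory particle caps the barrel with a base, where a ring of ATPases unfolds the substrate and non-ATPase subunits bind ubiquitin and shuttle proteins, and a lid that removes the ubiquitin chain. The genes of its subunits were examined in HK-2 cells, a widely used human line derived from proximal tubule epithelium of the kidney, with and without overexpression of *PPM1K*, which encodes a phosphatase of the mitochondrial matrix. Genes were taken as members where they were protein-coding and named PSMA, PSMB, PSMC or PSMD with a number, or PSME1 to PSME4, leaving out the immunoproteasome subunits PSMB8 and PSMB9. This gave 40 genes of the 31369 in the count table, 17197 of which were protein-coding. They were 7 alpha and 9 beta genes of the core, 6 ATPase, 3 non-ATPase and 8 lid genes of the regulatory particle, 3 genes of its assembly chaperones and 4 genes of other activators. Of the 40 genes, 39 passed the filter on low counts, and PSMB11 did not.

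The 3 control samples (NC) had a wild-type genotype entry and the 3 overexpression samples (OE) the entry for *PPM1K* overexpression. All 6 carried day 10 as the time and chronic kidney disease as the treatment entry, were grown in DMEM with serum, and the plasmid was given with Lipofectamine. The sample titles name short hairpins (shControl and shPPM1K) in place of a plasmid, and the number in the cell line entry goes up from sample to sample. The promoter that drives *PPM1K* on the plasmid and the plasmid given to the controls are not given in the sources used here. Across the NC samples 19 to 53 fragments were counted for *PPM1K*, and across the OE samples 2919 to 3531. The measured *PPM1K* level thus followed the genotype entries, with a log2 fold change of 6.39 (SE, the standard error, 0.13, edgeR adjusted p = 1.1e-18). Of 11 renal epithelial markers, PAX8, KRT8 and KRT18 reached an FPKM of 1 in every sample, while LRP2 had 1 count in all samples together and AQP1 and CUBN had at most 6 counts in a sample. Renal epithelial markers also changed between the groups, with log2 fold changes of −0.48 for KRT8, −1.09 for CDH1, −1.09 for GGT1 and 0.25 for PAX8 (edgeR adjusted p of 5.0e-07, 0.0011, 0.0034 and 2.7e-04), CDH1 and GGT1 at an FPKM of at most 0.35. Of 5 markers of endothelial cells, leukocytes and fibroblasts, none reached an FPKM of 1 in every sample, and PTPRC had 2 counts in all. The FPKM of COL1A1 was 1.23 to 1.44 in NC and 0.63 to 0.72 in OE, and the endothelial genes PECAM1 and VWF lay between 0.16 and 0.38. At these low levels PECAM1 and VWF were higher in OE, with log2 fold changes of 0.52 and 0.41 (edgeR adjusted p of 0.034 and 0.031). What these markers contribute to the results was not tested, and in RNA of whole cultures a change in cell makeup and one in RNA per cell cannot be told apart.

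The libraries held 34635770 to 36116963 counts in NC and 36033404 to 39850802 in OE. NC replicate 2 stood apart in the number of genes with a count, 26478 against 22094 to 22913 in the other samples. Nothing in the labels says whether the 3 samples of a group came from separate cultures, so p-values measure the spread between these samples, which may be technical. A single gene with 3 samples against 3 cannot go below an exact two-sided permutation p of 0.1, and adjusted p-values come from edgeR (quasi-likelihood F-test, corrected by Benjamini-Hochberg over the 15878 tested genes). Values per sample are given in the order of replicates 1, 2 and 3, and CPM are counts scaled to library size with TMM factors.

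The members were well expressed. Per transcript length, their median FPKM in NC was 20.9, against 2.98 over the tested protein-coding genes. The highest were PSME1, part of the 11S activator, at 265 ± 13.1 (SD, n = 3), and PSMA7, an alpha ring subunit, at 230.1 ± 12.5. PSMC3, PSMD2 and PSMD7 followed at 143 ± 7.24, 138 ± 3.03 and 128 ± 7.66 FPKM, and their spreads overlapped from one to the next. Every core particle carries each alpha subunit in the same number, while the FPKM of the alpha genes in NC ran from 0.103 ± 0.0379 for PSMA2 to that of PSMA7. PSMA1, at 0.767 ± 0.0306 FPKM, and PSMA6, at 3.25 ± 0.192 FPKM, were the other low alpha genes. Together the members took 0.609%, 0.605% and 0.622% of all counts in NC and 0.625%, 0.634% and 0.599% in OE, so that the groups overlapped.

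**Figure D1:**
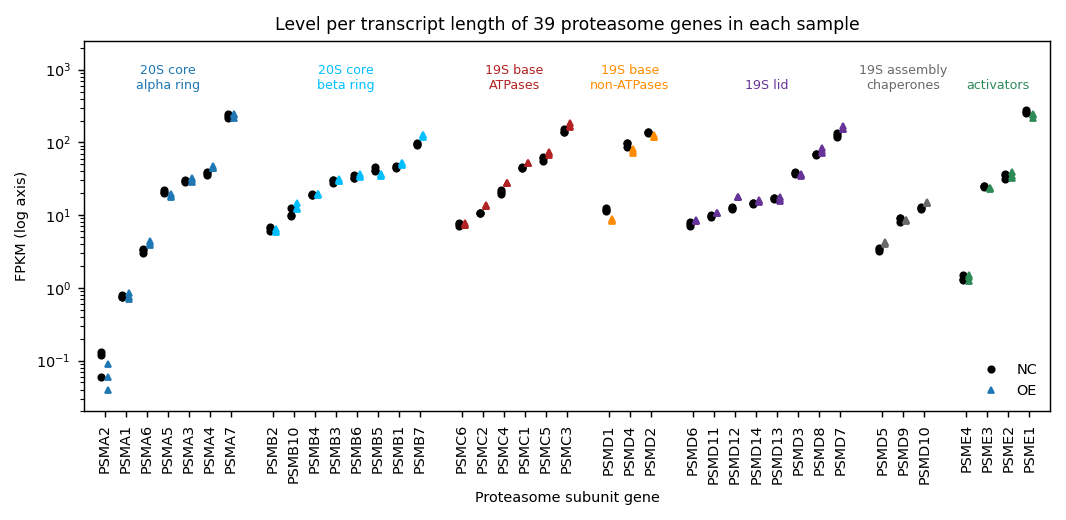
FPKM (log axis) of 39 proteasome genes in each of 3 NC samples (black circles) and 3 OE samples (coloured triangles), grouped by subcomplex and ordered by the NC mean. PSMB11, listed at 0 in 5 samples, is left out. PSMA2, PSMA1 and PSMA6 lie far below the other alpha genes, and PSME1 and PSMA7 are the highest.

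The low alpha genes share exons with other annotated loci on the same strand. PSMA1 had 86 to 95 counts in NC and 87 to 100 in OE, and RP11-140L24.4, which covers 26.7% of its exon bases, had 382 to 472. PSMA2 had 19 to 43 counts in NC and 13 to 29 in OE, and RP11-111K18.1, which covers 17.2% of its exon bases, had 2168 to 2474. PSMA6 had 767 to 832 counts in NC and 1066 to 1088 in OE, against 6639 to 7484 and 8696 to 10158 for RP11-561B11.2, which covers 14.1% of its exon bases. The levels of these 3 genes are therefore uncertain, and how the counting divided shared reads was not tested. PSMB11, the beta subunit of the thymus proteasome, had 0 counts in 5 samples and 4 counts in NC replicate 2. Its 0 of 36033404 to 39850802 counts in OE says only that it was not detected at this depth.

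Promoters are shown for the members with the most positive and the most negative log2 fold changes of the core, the base and the lid among those that passed the test, except PSMB7, for which only the name is given. Each is the run of 180 bases before the first RefSeq start listed for the gene (GRCh38.p14). Capitals mark TGACNNNGC, the core of the antioxidant response element to which factors of the NFE2 family bind, CCAAT, the NF-Y box, and CCGGAAG, the ETS core, each on either strand. PSMB5 is at chr14:23035221-23035400 (minus strand), PSMC4 at chr19:39970985-39971164 (plus), PSMD1 at chr2:231056687-231056866 (plus), PSMD12 at chr17:67366578-67366757 (minus) and PSMD3 at chr17:39980627-39980806 (plus).
PSMB5: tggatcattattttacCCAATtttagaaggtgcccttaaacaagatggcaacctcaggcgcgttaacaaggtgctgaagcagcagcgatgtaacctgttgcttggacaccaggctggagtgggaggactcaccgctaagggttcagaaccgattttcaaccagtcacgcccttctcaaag
PSMC4: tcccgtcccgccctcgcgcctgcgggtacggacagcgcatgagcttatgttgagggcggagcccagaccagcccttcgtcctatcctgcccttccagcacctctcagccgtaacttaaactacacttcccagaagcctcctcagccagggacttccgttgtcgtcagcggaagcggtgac
PSMD1: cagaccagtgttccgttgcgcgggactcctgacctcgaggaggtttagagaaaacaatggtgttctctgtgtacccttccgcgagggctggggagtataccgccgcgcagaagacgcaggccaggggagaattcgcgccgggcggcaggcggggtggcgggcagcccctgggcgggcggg
PSMD12: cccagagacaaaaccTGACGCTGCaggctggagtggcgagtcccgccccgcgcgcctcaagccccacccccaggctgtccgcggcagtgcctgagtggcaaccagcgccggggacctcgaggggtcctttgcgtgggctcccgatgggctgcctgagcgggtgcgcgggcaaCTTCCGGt
PSMD3: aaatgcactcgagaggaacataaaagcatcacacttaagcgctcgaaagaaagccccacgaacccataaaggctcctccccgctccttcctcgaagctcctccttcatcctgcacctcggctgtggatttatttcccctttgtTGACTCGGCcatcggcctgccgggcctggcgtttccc

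Promoters from 250 bases before to 50 after the start were found for 35 of the 40 members, and not for PSMA7, PSMB1, PSMB6, PSMB7 and PSMD4. TGACNNNGC was found in 10 of the 35 (28.6%), against 13.6% of all 27305 promoters and 15.0% of the 10483 promoters of tested protein-coding genes. Against the same backgrounds, CCAAT was in 17 (48.6%, against 35.7% and 36.7%) and CCGGAAG in 11 (31.4%, against 10.7% and 19.1%). TATAAA, the TATA box, was in 4 (11.4%, against 12.0% and 5.3%), and TGATGNAA, the core of the amino acid response element, in 0 of 35 (against 3.7% and 1.7%). Sites of different motifs may overlap and were counted separately. Of the 14 promoters of members that rose, 3 held TGACNNNGC, 7 CCAAT, 6 CCGGAAG and 4 TATAAA. Of the 6 promoters of members that fell, 3 held TGACNNNGC, 3 CCAAT, 0 CCGGAAG and 0 TATAAA. Of the 14 promoters of tested members that did not pass, 4 held TGACNNNGC, 6 CCAAT, 5 CCGGAAG and 0 TATAAA. A match is a string of letters and not a measured binding site.

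Among the 39 tested members, 15 rose and 7 fell in OE at an adjusted p under 0.05, which is 38.5% and 17.9%, while 17 did not pass. Over all tested genes 24.9% rose and 23.7% fell. The members are counted deeply, and 33 of them had a mean count of at least 1000. Of these, 36.4% rose and 21.2% fell, against 39.1% and 26.2% of all 5339 genes at that depth, so both shares were near those of genes as well counted. OE lay wholly above NC in 16 members (41.0%) and wholly below in 8 (20.5%), against 28.2% and 27.1% of all tested genes. These shares were not computed for genes as well counted, so the difference cannot be told apart from depth. The changes were small. No member passed the study's thresholds, which add a fold change above 2 or below 0.5 and which 1.73% of all tested genes passed upwards and 3.79% downwards. The count was 0 by edgeR also at an unadjusted p under 0.05 with the same folds, and 0 by DESeq2 and by limma. In 38 of 39 members the log2 fold change was under 0.5 in size, PSMA2 being the exception, against 12077 of 15878 tested genes. Without NC replicate 2, 12 members rose and 6 fell.

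**Figure D2:**
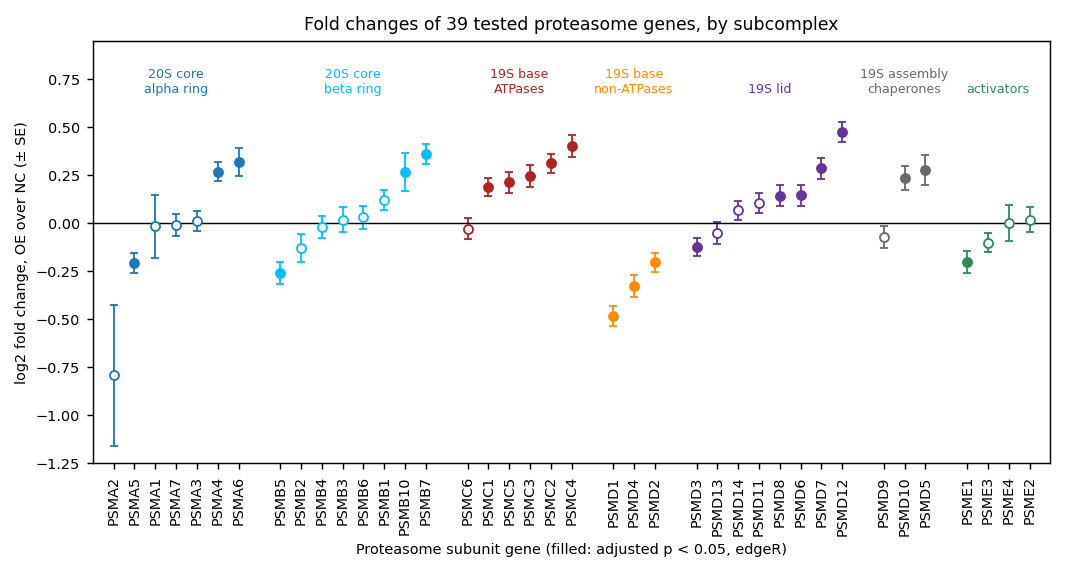
Log2 fold change of OE over NC (points) with its SE (bars) from edgeR for the 39 tested members, grouped by subcomplex. Filled points passed an adjusted p of 0.05. The 5 filled ATPases of the base lie above 0 and its 3 non-ATPase members below, and PSMD12 and PSMD1 lie at 0.48 and −0.48.

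Inside the base of the regulatory particle most ATPase genes and the 3 non-ATPase members moved in opposite directions. ADRM1, a non-ATPase of the base that the naming rule leaves out, rose instead. PSMC1, PSMC2, PSMC3, PSMC4 and PSMC5 rose, by 13.9% to 32.1%, and PSMC6 did not pass the test. The 3 non-ATPase genes PSMD1, PSMD2 and PSMD4 fell, by 13.2% to 28.4%. For comparison, 24.9% of all tested genes rose and 23.7% fell, and 39.1% and 26.2% of those averaging 1000 counts or more. The median log2 fold change was 0.23 for the 6 ATPase genes and −0.33 for the 3 non-ATPase genes, against −0.00321 over all tested genes. All 8 of these calls held at an adjusted p under 0.05 in each of the 16 alternative analyses, among them the one without NC replicate 2.

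PSMC4 (chromosome 19, 39971165 to 39981764, plus strand in GENCODE 44) changed most among the ATPases. Its CPM were 56.7, 54.0 and 60.7 in NC and 76.7, 76.1 and 73.7 in OE. Every OE sample was above every NC sample, and the log2 fold change was 0.40 (SE 0.06, edgeR adjusted p = 4.3e-06). PSMC2 had 98.0, 102 and 101 CPM in NC and 125, 124 and 125 in OE. Its groups also lay apart, with samples of a group close together, at a log2 fold change of 0.31 (SE 0.05, edgeR adjusted p = 1.7e-05). PSMC3, PSMC5 and PSMC1 had log2 fold changes of 0.24, 0.21 and 0.19. PSMC6, the remaining ATPase of the ring, had 57.3, 62.9 and 62.3 CPM in NC and 59.6, 58.6 and 60.8 in OE. Its groups overlapped, at a log2 fold change of −0.03 (SE 0.06, edgeR adjusted p = 0.7). The FPKM of PSMC4 divided by that of PSMC6 was 2.90, 2.52 and 2.86 in NC and 3.77, 3.81 and 3.56 in OE, a pair chosen after its values were seen.

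For PSMC1 and PSMC5 the annotation overlaps other genes. NRDE2 on the opposite strand covers 76.1% of the exon bases of PSMC1 but had only 570 to 772 counts, against 10132 to 13532 for PSMC1. FTSJ3 on the opposite strand covers 15.3% of those of PSMC5 and itself rose, with a log2 fold change of 0.22 (SE 0.05, edgeR adjusted p = 0.0017). FTSJ3 had 8857 to 12696 counts and PSMC5 9343 to 13205. The libraries were stranded, but the strand setting of the counting is not given in the sources used here.

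PSMD1, a scaffold subunit of the base (chromosome 2, 231056845 to 231173116, plus strand), fell most among the members that passed the test. Its CPM were 199.7, 196 and 214 in NC and 148, 148 and 140.2 in OE. The OE samples were all below the NC samples, and the log2 fold change was −0.48 (SE 0.05, edgeR adjusted p = 1.1e-07). PSMD4, which binds ubiquitin chains (chromosome 1, 151254709 to 151267479, plus strand), had 319.8, 291 and 321 CPM in NC and 254, 259 and 230.4 in OE. Its groups did not overlap, at a log2 fold change of −0.33 (SE 0.06, edgeR adjusted p = 5.1e-05). PSMD2, the scaffold that docks shuttle proteins, had 749, 736 and 748 CPM in NC and 632, 678 and 629 in OE. OE was again below NC in every sample, at a log2 fold change of −0.20 (SE 0.05, edgeR adjusted p = 0.0021). A further ubiquitin receptor of the base, ADRM1, which the naming rule leaves out, rose with a log2 fold change of 0.40 (SE 0.06, edgeR adjusted p = 5.2e-06), from 127, 112 and 121 CPM in NC to 161, 165 and 148 in OE. The fall of the non-ATPase members therefore did not extend to ADRM1.

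Summed over genes, the 6 ATPases had 1119.9, 1134 and 1193 CPM in NC and 1393, 1343 and 1288 in OE, and the 3 non-ATPases 1268, 1223 and 1282 in NC and 1033, 1085 and 999 in OE. The ratio of the sums was 0.883, 0.927 and 0.930 in NC and 1.35, 1.24 and 1.29 in OE. The ratio was formed after its genes were seen to move in opposite directions, so its separate groups are no further evidence. It sets 6 genes against 3 without regard to length, so the value 1 has no meaning of its own. These sums are dominated by the most abundant genes and are given as a description.

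Of the 8 genes of the lid, 4 rose, PSMD6, PSMD7, PSMD8 and PSMD12, while PSMD3 fell and PSMD11, PSMD13 and PSMD14 did not pass. PSMD12, a scaffold subunit (chromosome 17, 67337916 to 67366605, minus strand), had the largest positive log2 fold change of all members. Its CPM were 70.5, 76.6 and 72.2 in NC and 103, 102 and 100.3 in OE. The groups lay far apart against the spread within them, at a log2 fold change of 0.48 (SE 0.05, edgeR adjusted p = 1.5e-07). PSMD3, also a scaffold subunit of the lid (chromosome 17, 39980807 to 39997959, plus strand), had 207, 209 and 199 CPM in NC and 192, 184 and 189.6 in OE. OE was below NC in every sample, at a log2 fold change of −0.12 (SE 0.05, edgeR adjusted p = 0.039), and this call was lost without NC replicate 2 (adjusted p = 0.13) and with any other sample left out except OE replicate 3 (adjusted p = 0.063 to 0.15).

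PSMD7, the partner of the deubiquitinase, had a log2 fold change of 0.29 (SE 0.05, edgeR adjusted p = 1.7e-04). An antisense lncRNA with few counts covers 31.2% of its exon bases. PSMD14, the deubiquitinase of the lid itself, had 117, 119 and 114 CPM in NC and 121, 126 and 119.5 in OE. Its OE samples were just above its NC samples, yet at a log2 fold change of 0.07 (SE 0.05) it did not pass (edgeR adjusted p = 0.26). PSMD11 had a log2 fold change of 0.11 (edgeR adjusted p = 0.099) and PSMD13 of −0.05 (edgeR adjusted p = 0.48). PSMD6 and PSMD8, at 0.15 and 0.14, passed with an adjusted p of 0.032 and 0.034 by edgeR, and both lost the call without NC replicate 2 (adjusted p = 0.13 and 0.084). PSMD6 also lost it without NC replicate 1, OE replicate 1 or OE replicate 2 (adjusted p = 0.053 to 0.12), and PSMD8 with any sample left out except OE replicate 3 (adjusted p = 0.065 to 0.21). The FPKM of PSMD12 divided by that of PSMD1 was 1.04, 1.16 and 0.999 in NC and 2.07, 2.03 and 2.11 in OE, a pair chosen for its difference.

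**Figure D3:**
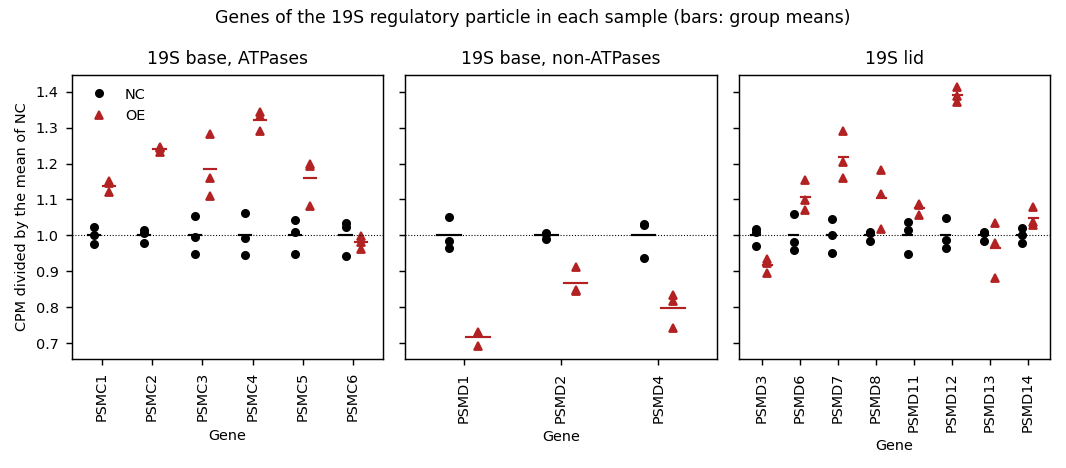
CPM of each gene of the 19S base and lid in each sample, divided by the mean of the 3 NC samples, with NC as black circles, OE as red triangles and bars at the group means. The OE samples of PSMC1 to PSMC5 lie above NC, those of PSMD1, PSMD2 and PSMD4 below, and PSMD12 lies highest in the lid.

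In the core, genes passed in both directions. Of the 15 tested core genes, 4 rose (26.7%), 2 fell (13.3%) and 9 did not pass, against 24.9% and 23.7% of all tested genes. Both shares were below the 39.1% and 26.2% of tested genes averaging 1000 counts or more, a depth that some core genes did not reach. The catalytic subunits differed among themselves. PSMB7, which carries the trypsin-like site (chromosome 9, 124353465 to 124415444, minus strand), had 180.1, 183 and 189 CPM in NC and 248, 240.2 and 222 in OE. All OE samples exceeded all NC samples, at a log2 fold change of 0.36 (SE 0.05, edgeR adjusted p = 6.7e-06). PSMB5, which carries the chymotrypsin-like site (chromosome 14, 23016543 to 23035230, minus strand), had 75.3, 68.3 and 69.7 CPM in NC and 59.9, 61.7 and 56.5 in OE. Here the OE samples were all below, at a log2 fold change of −0.26 (SE 0.06, edgeR adjusted p = 6.9e-04). PSMB6, which carries the caspase-like site, had 56.1, 51.1 and 50.6 CPM in NC and 53.6, 56.5 and 51.0 in OE. Its groups overlapped, at a log2 fold change of 0.03 (SE 0.06, edgeR adjusted p = 0.7).

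In FPKM, the ratio of PSMB7 to PSMB5 was 2.07, 2.32 and 2.35 in NC and 3.58, 3.38 and 3.40 in OE. This pair was chosen after its genes were seen to move in opposite directions, so its separate groups follow from their changes. The remaining structural beta genes PSMB1, PSMB2, PSMB3 and PSMB4 had log2 fold changes from −0.13 to 0.12 and did not pass. PSMB1 passed without OE replicate 3 (adjusted p = 0.0094) and with limma on FPKM (adjusted p = 0.038 with either pseudocount). PSMB10, the immunoproteasome subunit that replaces PSMB7, had 17.2, 17.9 and 22.3 CPM in NC and 26.1, 22.0 and 21.0 in OE. The groups overlapped through NC replicate 3, and the log2 fold change of 0.27 (SE 0.10) passed at an adjusted p of 0.03 by edgeR. This call was lost without NC replicate 2 (adjusted p = 0.098), without NC replicate 1 (adjusted p = 0.15) or OE replicate 1 (adjusted p = 0.18), and when the counts of CTC-479C5.12, a locus over 39.4% of its exon bases, were added (log2 fold change 0.18, adjusted p = 0.061). Its partners PSMB9 and PSMB8 had log2 fold changes of 0.26 (edgeR adjusted p = 0.023) and 0.08 (edgeR adjusted p = 0.31).

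**Figure D4:**
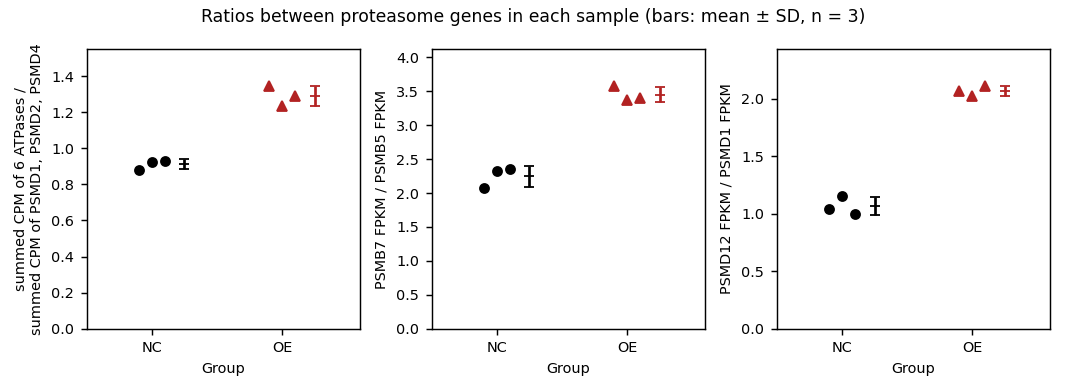
Ratios between proteasome genes in each sample, with NC as black circles, OE as red triangles and bars for the mean ± SD (n = 3). The summed CPM of the 6 ATPases over that of PSMD1, PSMD2 and PSMD4 was 0.883 to 0.930 in NC and 1.24 to 1.35 in OE, and the FPKM ratios of PSMB7 to PSMB5 and of PSMD12 to PSMD1 were also higher in every OE sample. The ratios were chosen after the changes of their genes were seen and add no evidence to them.

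In the alpha ring PSMA4 and PSMA6 rose and PSMA5 fell, which is 28.6% and 14.3% of its 7 genes. Over all tested genes 24.9% rose and 23.7% fell, and 39.1% and 26.2% of those averaging 1000 counts or more. PSMA4 had 285, 270.3 and 293 CPM in NC and 342, 352 and 328 in OE. The groups lay apart, at a log2 fold change of 0.27 (SE 0.05, edgeR adjusted p = 1.7e-04). PSMA5 had 138, 128 and 128 CPM in NC and 110.3, 119.9 and 111 in OE. OE was below NC in every sample, at a log2 fold change of −0.21 (SE 0.05, edgeR adjusted p = 0.0029). PSMA6 had 23.9, 21.8 and 23.1 CPM in NC and 29.0, 27.0 and 29.9 in OE, a log2 fold change of 0.32 (SE 0.07, edgeR adjusted p = 0.0011). The same-strand locus RP11-561B11.2 moved alongside it at 0.36 (SE 0.05, edgeR adjusted p = 8.7e-06). With the counts of both added together, the log2 fold change was also 0.36.

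PSMA2 had 1.03, 1.22 and 0.528 CPM in NC and 0.785, 0.329 and 0.495 in OE. The groups overlapped, and its log2 fold change of −0.79 (SE 0.37), the most negative of all members, did not pass (edgeR adjusted p = 0.081). It passed without NC replicate 3 (log2 fold change −1.07, adjusted p = 0.024) and without OE replicate 1 (−1.16, adjusted p = 0.032). With the counts of its same-strand locus added, the log2 fold change was −0.07 (edgeR adjusted p = 0.30). PSMA1, PSMA3 and PSMA7 had log2 fold changes of −0.02, 0.01 and −0.01.

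Set side by side, the median log2 fold change was 0.14 over the 17 genes of the regulatory particle and 0.0134 over the 15 tested genes of the core, and the core value turned negative with upper quartile scaling (−0.0244) and without NC replicate 2 (−0.0153) or OE replicate 2 (−0.0176). Of the regulatory particle genes 9 rose (52.9%) and 4 fell (23.5%), against 24.9% and 23.7% of all tested genes. Among tested genes averaging 1000 counts or more, 39.1% rose and 26.2% fell. The falling share of the particle was thus near that of either background. The particle median was positive in all 16 alternatives, at 0.104 to 0.167. The core median minus that of the particle was −0.131, and −0.135 without NC replicate 2. As the mean log2 CPM of a sample, core minus particle was −1.81, −1.82 and −1.87 in NC and −1.87, −1.95 and −1.91 in OE. NC replicate 3 and OE replicate 1 were nearly equal on this measure. It weights genes equally, and so includes PSMA2, at a log2 fold change of −0.79 on few counts. With the same-strand locus of PSMA2 added, that was −0.07. Summed CPM instead rose in both parts, with overlapping groups. The mean ± SD was 1529 ± 44.9 in NC and 1625 ± 76.2 in OE for the core. For the particle it was 3638 ± 67.3 in NC and 3746 ± 131 in OE. The median of the particle hides the opposite movements of most of its ATPase members and of its non-ATPase members in the base.

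Among the 4 activators, which open the core without the ATPases, PSME1 fell (25.0%) and 0 rose. Over all tested genes 23.7% fell and 24.9% rose, and 26.2% and 39.1% of those averaging 1000 counts or more. PSME1 (chromosome 14, 24136163 to 24138967, plus strand) had 503, 494 and 536 CPM in NC and 472, 453 and 406 in OE. The OE samples were all lower, at a log2 fold change of −0.20 (SE 0.06, edgeR adjusted p = 0.0059), a call that was lost without NC replicate 3 (adjusted p = 0.052). PSME2, its partner in the same ring, had 136, 124 and 143 CPM in NC and 135, 149 and 122 in OE. These groups overlapped, at a log2 fold change of 0.02 (SE 0.07, edgeR adjusted p = 0.83). PSME3, the nuclear activator, had 137, 136 and 138 CPM in NC and 130.1, 129 and 125 in OE. OE was below NC in each sample, but the log2 fold change of −0.10 (SE 0.05) did not pass (edgeR adjusted p = 0.089), except with upper quartile scaling (adjusted p = 0.023). PSME4, also a nuclear activator, had 14.1, 17.3 and 14.7 CPM in NC and 15.7, 13.8 and 16.7 in OE, and its log2 fold change was 0.00 with a SE of 0.09.

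Of the 3 chaperones that assemble the base, PSMD5 and PSMD10 rose (66.7%) and PSMD9 did not pass. Over all tested genes 24.9% rose and 23.7% fell, and 39.1% and 26.2% of those averaging 1000 counts or more. PSMD5 had 15.1, 16.5 and 16.9 CPM in NC and 19.3, 19.6 and 19.8 in OE. The groups were apart, at a log2 fold change of 0.28 (SE 0.08, edgeR adjusted p = 0.0055). PSMD10 followed at 0.23 (SE 0.06, edgeR adjusted p = 0.0038). PSMD9 had 87.0, 77.1 and 86.9 CPM in NC and 81.3, 80.5 and 77.2 in OE. Its groups overlapped, at a log2 fold change of −0.07 (SE 0.06, edgeR adjusted p = 0.31).

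The wider pathway was described with 40 further genes in 5 lists, all of them tested, of which 19 rose (47.5%) and 7 fell (17.5%), against 24.9% and 23.7% of all tested genes and 39.1% and 26.2% of those with a mean count of at least 1000. None passed the 2-fold thresholds, and the counts of single lists are to be read against the same shares. Among 5 core assembly chaperones 3 rose and 0 fell, with PSMG2 and PSMG1 at log2 fold changes of 0.34 and 0.29 (edgeR adjusted p = 0.013 and 0.0069). POMP, which matures the beta ring, had a log2 fold change of −0.02. Among 9 further assembly factors, subunits and associated proteins of the proteasome 4 rose and 1 fell. PSMF1, an inhibitor of the core, had the largest log2 fold change there, 0.43 (SE 0.05, edgeR adjusted p = 1.2e-06), followed by ADRM1, and TXNL1, a thioredoxin bound to the proteasome, fell by 0.17 on the log2 scale. SEM1, a small lid subunit outside the naming rule, had a log2 fold change of −0.11 (edgeR adjusted p = 0.19).

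The list of transcription factors of the subunit genes and the proteins that process them held NFE2L1, the largest log2 fold change of the 5 lists. Here 6 of 8 rose and 1 fell, with a median log2 fold change of 0.29. NFE2L1, the factor known to raise proteasome genes when the proteasome is inhibited, had 439, 422 and 437 CPM in NC and 806, 809 and 822 in OE. The OE samples were all far above, at a log2 fold change of 0.91 (SE 0.05, edgeR adjusted p = 3.4e-12), a fold of 1.88. NFE2L3, its relative, had 53.9, 52.1 and 52.8 CPM in NC and 77.1, 71.6 and 74.3 in OE. It too rose in every sample, with a log2 fold change of 0.49 (SE 0.05, edgeR adjusted p = 1.7e-07). MAFK, a small partner of these factors, fell from 31.8, 33.8 and 33.0 CPM in NC to 24.2, 22.0 and 24.5 in OE, a log2 fold change of −0.48 (SE 0.07, edgeR adjusted p = 9.2e-06). The other small partners on the list, MAFF and MAFG, rose instead. Their log2 fold changes were 0.35 and 0.20 (edgeR adjusted p = 1.3e-05 and 0.022). Whether the NFE2L1 level bears on the members was not tested.

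Genes that extract and shuttle substrates moved both ways, with 4 of 12 higher and 4 lower. FAF2, a cofactor of VCP, rose with a log2 fold change of 0.41 (SE 0.06, edgeR adjusted p = 2.0e-05). UBQLN2, a shuttle of ubiquitylated proteins, fell by 0.62 on the log2 scale (SE 0.09, edgeR adjusted p = 4.5e-06), and VCP, the ATPase that pulls substrates out of complexes, fell by 0.47 (SE 0.05, edgeR adjusted p = 2.1e-07). Of 6 genes of ubiquitin and its activation, 2 rose and 1 fell. UBB, which encodes polyubiquitin, had a log2 fold change of 0.17 (SE 0.06, edgeR adjusted p = 0.015), and UBA1, the main ubiquitin-activating enzyme, had one of −0.50 (SE 0.05, edgeR adjusted p = 5.4e-08).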

How the data were processed

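RNA of 3 NC and 3 OE samples of HK-2 cells was sequenced from stranded mRNA libraries. The authors trimmed the reads with FASTX-Toolkit, used HISAT2 for alignment to GRCh38 and kept unique alignments for counting. The deposited count table holds raw counts per gene. The submitters' processing notes also list mm10 among the builds. The FPKM deposited beside them were computed by the authors and are given to 2 decimals. The counting program, its strand setting and the annotation release are not given in the sources used here. Overlaps and positions were taken from GENCODE release 44, and promoters from RefSeq (GRCh38.p14).

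Groups were taken from the genotype entries and columns were matched to samples by the numbers in their titles. The counts were fitted with edgeR 4.0.16 (R 4.3.3). Genes were filtered by filterByExpr, libraries scaled by TMM, and the 15878 genes that passed were tested by the quasi-likelihood F-test. The standard error is the log2 fold change divided by the root of F. DESeq2 1.42.0 and limma 3.58.1 on log2(FPKM + 1) or log2(FPKM + 0.1) were alternatives, as were other scalings, filters, protein-coding genes only, a replicate block and each sample left out. Adding same-strand loci that cover at least 5% of a member's exon bases was chosen after their counts had been seen. The fit was tested on simulated data. Pairs of replicates had a mean chi-square of 5.12 to 11.7 per gene, so no sample was a copy of another. The largest values were those of OE replicate 3, 11.7 with OE replicate 1 and 10.6 with OE replicate 2. The remaining pairs had 5.12 to 7.13.

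The members and lists were chosen with earlier results of these data known. By rule every member is named, with per-sample values for PSMB5, PSMB6, PSMB7, PSMB10, the activators, the extremes of each subcomplex and members near 0, and for the largest changes of each further list, some of which are not reported here. PSMA4, PSMA5, PSMC2, PSMD14, PSMD4, SEM1, POMP, MAFF, MAFG and FTSJ3 and the ratios were given after their values were seen. Counts at these depths leave counting error small except for PSMA1, PSMA2 and PSMB11. Python 3.11.15 was used with pandas 2.3.3 for tables and matplotlib 3.10.9 for figures.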

Additional observations from a re-analysis of the deposited data

How the results depend on the processing

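Of the 22 members past an adjusted p of 0.05, 17 (12 higher, 5 lower) stayed past it in all 16 alternatives, and the direction changed in 0 of the 22. The other 5 were PSMB10, PSMD3, PSMD6, PSMD8 and PSME1. With each sample left out, 12 to 16 members rose and 6 to 7 fell. The count of members past the 2-fold thresholds downwards was 0 to 1 with a sample left out, PSMA2 without NC replicate 3 or OE replicate 1, and the core median minus the regulatory particle median was −0.135 to −0.0908, and the particle median 0.104 to 0.167. Upper quartile scaling moved the median of all genes to −0.0412 and the particle median to 0.106, with 12 members higher and 8 lower. There the log2 fold changes of members that had not passed turned negative in PSMA3 (−0.0244), PSMB3 (−0.0197), PSMB6 (−0.00701), PSME2 (−0.019) and PSME4 (−0.0376). That of PSME4 was also negative with DESeq2 size factors (−0.0025), at least 10 counts in every sample (−0.00645) and protein-coding genes only (−0.0105). With limma PSMA7 and PSMB4 turned positive, at 0.00849 and 0.00244 with a pseudocount of 1 and at 0.00852 and 0.00256 with 0.1, and limma passed 55 and 69 of all genes upwards and downwards past 2-fold with a pseudocount of 1 and 155 and 282 with 0.1. With a sample left out, the log2 fold changes of members that had not passed and changed sign ran from −0.0907 to 0.0314 in PSMA1, −0.0215 to 0.0511 in PSMA3, −0.0509 to 0.0452 in PSMA7, −0.0216 to 0.0506 in PSMB3, −0.00537 to 0.0843 in PSMB6, −0.103 to 0.00516 in PSMD13, −0.0533 to 0.0846 in PSME2 and −0.0645 to 0.0945 in PSME4. The cause of these changes was not tested. Deviations from the group means, over all tested genes, gave correlations of −0.00319, −0.0663 and −0.0542 between same-numbered samples. This gives no sign that the numbers pair the samples, but it cannot exclude a pairing. With the replicate block 13 members rose and 6 fell, and PSMD3, PSMD6 and PSMD8 were lost. Depth limits the values of PSMA1, PSMA2 and PSMB11.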
